A study of Arabidopsis thaliana with 4 samples.

Results

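The transcripts described here are those with a higher signal in dark-grown seedlings of the Arabidopsis double mutant ein3-1eil1-1 than in wild type in each of 2 pairs of arrays. A pair holds 1 mutant and 1 wild-type array. Pair 1 joins the arrays whose titles carry no replicate remark, and pair 2 joins those that the titles call a biological replicate. Members were chosen by those measured differences: a probe set was a member if its normalised log2 signal was at least 1 higher in the mutant in both pairs, which is at least 2-fold. Of 14047 probe sets bright enough to be compared, 125 were members, or 0.89%, and 160, or 1.14%, were lower by as much in both pairs. Because membership was decided by the mutant minus wild-type differences, these differences are a description of the members and are given without a test.

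RNA came from whole seedlings grown for 4 days in darkness and was hybridised to Affymetrix ATH1 arrays, 2 arrays per genotype. The mutant, ein3-1eil1-1, combines lesions in EIN3 and EIL1, and the labels record that it accumulated more protochlorophyllide than wild type. The reference was wild type of the Columbia accession, grown the same way, and no ethylene or other agent was named for either genotype. In whole seedlings, fewer cells of a type and less RNA per cell cannot be told apart.

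EIN3 and its relatives are the nuclear transcription factors at the end of the ethylene pathway. They accumulate when the hormone silences its receptors and, in a seedling that pushes through soil in the dark, they shape the hypocotyl and apical hook. They also restrain the build-up of protochlorophyllide, the pigment precursor that becomes harmful when light arrives. Seedling growth in darkness draws on auxin as well, whose response genes include repressors and conjugating enzymes that dampen the signal.

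The median deposited signal was 50.5 and 84.8 in the mutant arrays and 49.2 and 52.1 in the wild-type arrays, so the arrays were set on a common scale by quantile normalisation. EIN3 was 6.51 and 7.22 on the normalised log2 scale in the mutant, against 9.73 and 10.24 in wild type. Of 27 organ and stage marker genes, 8 had a named probe set. PORB, a protochlorophyllide oxidoreductase abundant in etiolated seedlings, and the root gene PYK10 lay above the 98th percentile of every array. The reserve mobilisation gene ICL stood at percentiles of 98.0 and 96.5 in the mutant and 98.7 and 95.1 in wild type. PORB had 11.25 and 11.80 in the mutant, against 12.21 and 13.10 in wild type, so the groups did not overlap (adjusted p = 0.41 by limma, a test over all compared probe sets, and 0.0028 with the pair as a block). The root hair gene EXPA7 and the stomatal gene MUTE stayed below the 28th percentile, while the root hair gene EXPA18 and the stomatal genes SPCH and FAMA reached percentiles of 42.2, 44.9 and 42.3 on their highest array. Of the 8 markers, 4 were bright enough to be compared, and 0 of these 4 were members.

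Of the 125 members, 65 had a probe set that named exactly 1 gene, 5 named several genes and 55 were not listed in the naming table. The share naming 1 gene was 52% among members and 53.7% among all compared probe sets. Of the 65 genes, 13 carry a symbol in the RefSeq annotation, and the other 52 are known there by their locus. Apart from P1R1, a role is given below for genes with a symbol or a family name in that annotation. The same holds for genes on lists of pathways and families. The other members are given by locus and value.

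The members varied widely in size of difference. The mean of the 2 pair differences had a median of 1.65 and ran from 1.04 to 5.68 on the log2 scale, against a median of 0.01 over all compared probe sets. It was at least 2 in 36 members and at least 3 in 3, whereas 46 members had a mean difference under 1.5. The difference was larger in pair 1 for 55 members and larger in pair 2 for 70. Over all 14047 probe sets the differences of the pairs had a Pearson correlation of 0.405, given as a description.

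**Figure D1:**
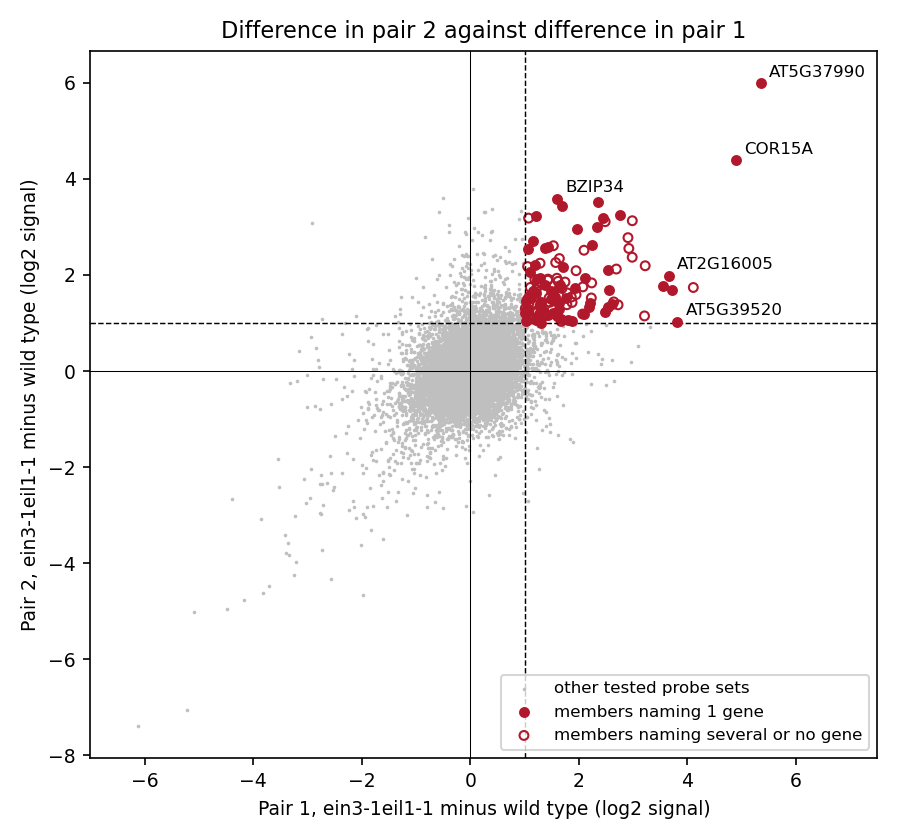
Log2 difference, ein3-1eil1-1 minus wild type, in pair 1 (horizontal axis) and pair 2 (vertical axis) for all 14047 compared probe sets. Members lie above and to the right of the dashed lines at 1; filled red points name 1 gene, open red points name several or none. AT5G37990 and COR15A stand apart from the other members, at 5.35 and 4.90 in pair 1 and 6.00 and 4.39 in pair 2.

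The members were mostly transcripts of middling signal in the mutant and low signal in wild type. Their mean normalised log2 signal had a median of 7.30 in the mutant and 5.54 in wild type. Ranked by that mean among all compared probe sets, the median member stood at percentile 53.9 in the mutant and at 11.2 in wild type. All 125 reached the 40th percentile of the array on both mutant arrays. In wild type 40 members were below it on both arrays, 16 on 1 array and 69 on neither. The shares over all compared probe sets were 1.08%, 8.16% and 90.8%. Those 40 members passed the filter on dim probe sets through the mutant arrays alone, so they had to differ. Their number says nothing further about the mutant, and they lower the wild-type median and percentile given above. The rule itself puts every member lower in wild type, so the lower wild-type level is not a separate result.

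**Figure D2:**
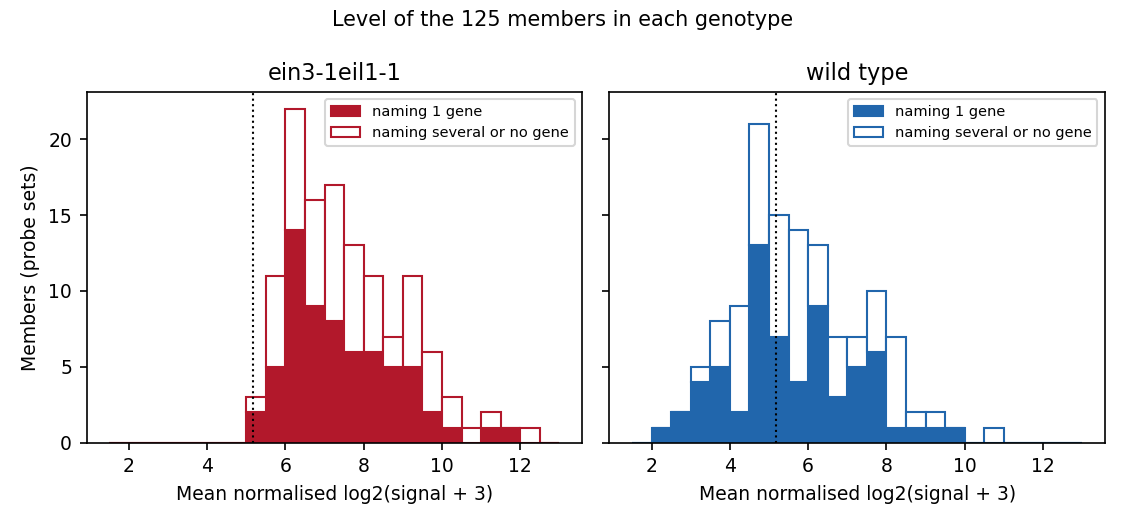
Number of members by mean normalised log2(signal + 3) in ein3-1eil1-1 (left) and wild type (right), in steps of 0.5; filled bars name 1 gene and open bars name several or none. The dotted line is the mean 40th percentile of the arrays. All 125 members reached that percentile on both mutant arrays, and 40 lay below it on both wild-type arrays. Those 40 passed the filter through the mutant arrays alone.

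In 124 of the 125 members the lower mutant value lay above the higher wild-type value, where 16.4% of all compared probe sets did. The rule makes most of that order, so it adds nothing to the members. The exception was GSTU22, with 7.03 and 5.54 in the mutant against 5.83 and 4.48 in wild type. Its mean difference of 1.13 ran from 0.40 to 1.83 when each array was left out in turn. In 78 members, or 0.555% of the compared probe sets, the gap between the genotypes was itself at least 1. The standard deviation between the 2 arrays of a genotype had a median of 0.29 in the mutant and 0.33 in wild type.

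Methyltransferases of the SABATH family held the largest difference. These enzymes move a methyl group from S-adenosylmethionine to small plant acids, among them hormones such as salicylic, jasmonic and indole-3-acetic acid. AT5G37990 had 7.32 and 8.41 in the mutant, against 1.97 and 2.41 in wild type. Its deposited signals were 137.6 and 506.3 in the mutant, against 0.7 and 2.7 in wild type, which is near the floor of the array. The mean log2 difference was 5.68 with a pseudocount of 3, 6.52 with 1 and 3.81 with 16, so the size of this difference is set by the pseudocount.

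AT5G38020, another SABATH gene, reached the 40th percentile on every array of both genotypes. It had 7.47 and 8.51 in the mutant, against 5.49 and 5.55 in wild type, a mean difference of 2.47. In both genes the pair 2 mutant array was the higher of the mutant arrays by about 1 log2 unit. NAMT1, which encodes a nicotinate methyltransferase, had 6.98 and 6.87 in the mutant, against 5.68 and 5.86 in wild type. Its pair 2 difference of 1.003 was the smallest that met the rule.

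The 3 other SABATH genes compared had mean differences below 0. Of 24 SABATH genes listed, 16 had a named probe set and 6 were bright enough to be compared, with a median difference of 0.16. AT2G14060 had 3.86 and 4.10 in the mutant, against 6.22 and 6.23 in wild type. AT3G21950 had 4.09 and 3.92 in the mutant, against 5.42 and 5.41 in wild type. Both lay below the 40th percentile on both mutant arrays and were compared only through the wild-type arrays, so they had to differ and are given without a test. AT4G36470 differed by -2.73 in pair 1 and 1.08 in pair 2.

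Both COR15 genes were members. They encode small hydrophilic chloroplast proteins that accumulate in the cold and stabilise membranes during freezing. COR15A had 7.64 and 6.86 in the mutant, against 2.74 and 2.47 in wild type. Its deposited signals were 172.7 and 170.8 in the mutant, against 2.9 and 2.9 in wild type. The mean log2 difference of 4.64 was 5.21 with a pseudocount of 1 and 3.12 with 16. COR15B had 6.89 and 6.08 in the mutant, against 4.80 and 4.90 in wild type. Both COR15 genes lay below the 40th percentile on both wild-type arrays. They were thus compared only through the mutant and had to differ. In both genes the pair 1 mutant array was the higher.

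The other cold, dehydration and abscisic acid response genes compared had mean differences of at most 0.62. Of 25 genes listed, 5 were compared, including both COR15 genes, and their median was 0.62. COR15A and COR15B had to lie above 0, and the other 3 did so too, where 49.5% of all compared genes did. The gene lists were chosen with earlier results of these data known, so this count is a description only. The dehydrin gene LTI30 had 9.61 and 10.27 in the mutant, against 8.42 and 10.21 in wild type. It was therefore higher by 1.19 in pair 1 and by 0.06 in pair 2. The dehydrin gene COR47 had 12.61 and 13.25 in the mutant, against 12.39 and 13.21 in wild type. LEA4-5, a late embryogenesis abundant gene, differed by 0.62 and -0.44.

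Among auxin genes, IAA29 and GH3.3 were members. IAA29 belongs to the Aux/IAA repressors, which hold auxin response factors inactive until auxin triggers their breakdown. It had 9.89 and 9.88 in the mutant, against 7.36 and 7.77 in wild type, a mean difference of 2.32 (SD between arrays 0.01 in the mutant and 0.29 in wild type, n = 2 each). GH3.3 encodes an enzyme that joins auxin to amino acids and so lowers the free hormone. It had 8.71 and 8.72 in the mutant, against 7.43 and 6.79 in wild type. In both genes the mutant arrays lay within 0.02 of each other, and the wild-type arrays were further apart.

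The other GH3 genes compared had smaller mean differences in the same direction, and these were not told apart from 0 by limma. Of 58 auxin genes listed, 9 were compared, with a median of 0.48. Of these, 6 had a mean difference above 0, where 49.5% of all compared genes did. The 6 include both members, which had to lie above 0. This list too was chosen with earlier results known, so the count is a description only. Under the deposited scaling, where 86.3% of all compared genes lay above 0, 7 of the 9 did, and the median was 0.91. GH3.1 differed by 0.83 and 0.93 in the pairs but was below the 40th percentile on both wild-type arrays, so it was compared only through the mutant. The homeobox gene HAT2, which is induced by auxin, differed by 0.61 and 0.42. GH3.17 differed by 0.10 and 0.86, and GH3.5, listed as WES1, by 0.43 and 0.42. Neither passed by limma, nor with the pair as a block (adjusted p = 0.456 and 0.448). The Aux/IAA genes were not uniform. IAA20 had 6.07 and 6.13 in the mutant, against 7.67 and 8.43 in wild type, and IAA30 differed by -0.20 and -0.56. By limma IAA20 had an adjusted p of 0.068, and of 3.5e-04 with the pair as a block.

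In limma fitted over all probe sets, 11, or 0.0783%, were higher and 30, or 0.214%, were lower at an adjusted p under 0.05. With the pair as a block 187, or 1.33%, were higher and 225, or 1.6%, were lower. The block leaves fewer degrees of freedom to estimate the spread, and the pairing rests on the titles alone. With 2 arrays per genotype these p-values measure only the spread between these arrays. They are given for single list genes that were not members. Since the rule took genes out of the lists for being higher, no count of list genes past the threshold is read as a direction of a list.

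IAA29 also stands on the light and shade list, as it responds to shade. Of 27 genes listed, only IAA29 and FHL were compared. FHL helps to carry phytochrome A into the nucleus. It had 7.65 and 7.47 in the mutant, against 6.27 and 6.81 in wild type, which met the size of 1 in pair 1 alone (limma adjusted p = 0.43, and 0.038 with the pair as a block).

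Of the NRT1/PTR transporters, a family that moves nitrate, peptides, hormones and other small molecules across membranes, 3 were members. AT3G21670 (NPF6.4) had 8.32 and 8.38 in the mutant, against 5.99 and 5.38 in wild type, a mean difference of 2.67. AT1G68570 (NPF3.1), which can carry nitrate and gibberellin, had 6.94 and 7.10 in the mutant, against 5.32 and 5.36 in wild type. AT1G72140 had 9.63 and 9.17 in the mutant, against 8.53 and 7.10 in wild type. For the last gene the wild-type arrays lay 1.43 apart, and the mean difference of 1.59 was 0.87 without wild type replicate 2.

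The remaining NRT1/PTR genes had mean differences between -0.76 and 0.37. Of 45 listed, 13 were compared, with a median of 0.14. A mean difference above 0 was found in 10, where 49.5% of all compared genes had it. These 10 include the 3 members, which had to lie above 0, and the list was chosen with earlier results known. The count is therefore a description only. Under the deposited scaling 12 lay above 0 and the median was 0.56, beside 86.3% and a median of 0.39 over all compared genes. Apart from the members, the highest were AT2G26690 with 0.37 and AT1G22570 with 0.27, and the lowest were AT3G01350 with -0.76 and AT1G33440 with -0.34. GTR1 and GTR2, which carry glucosinolates, differed by 0.23 and 0.14.

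**Figure D3:**
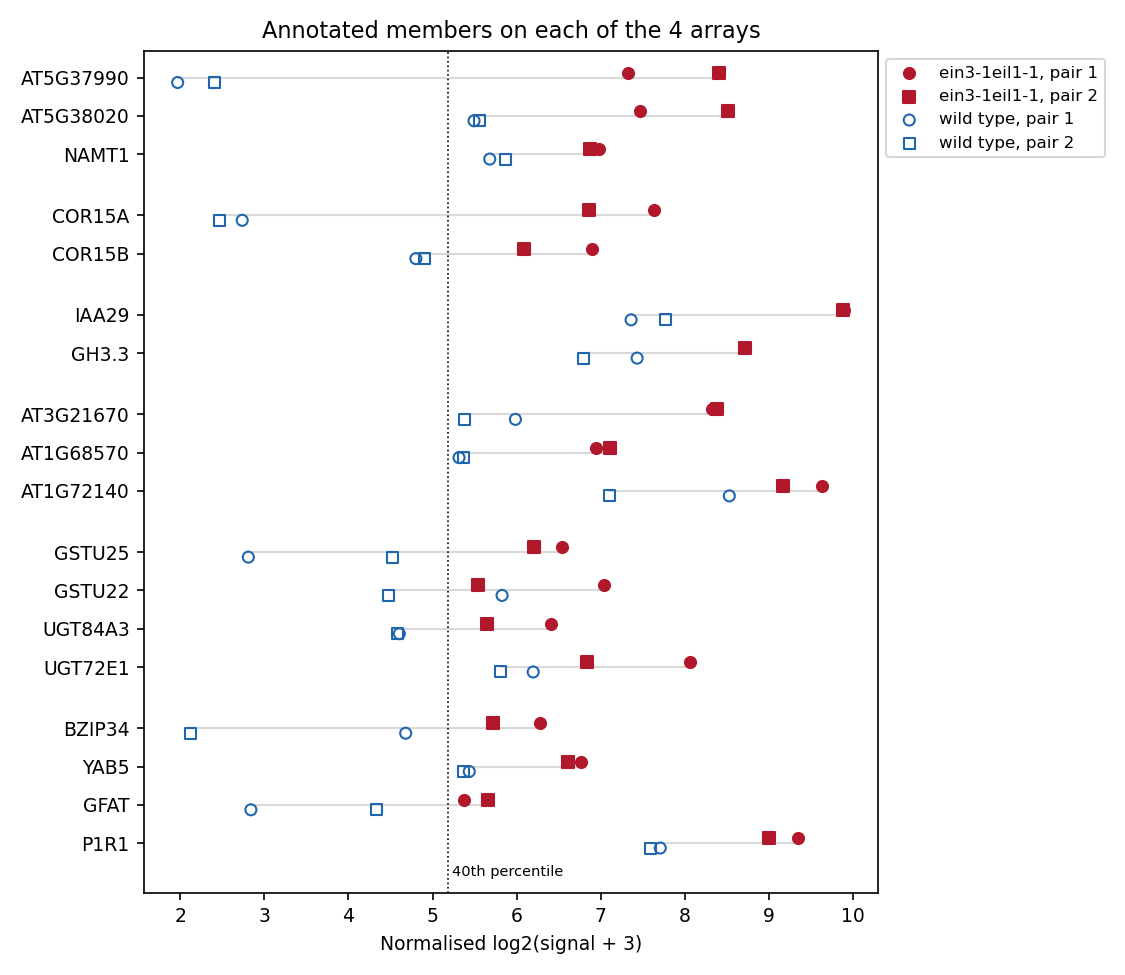
Normalised log2(signal + 3) of the 18 members with a symbol or a family role on each of the 4 arrays. Filled red marks are ein3-1eil1-1 and open blue marks wild type; circles are pair 1, squares pair 2, and the dotted line is the mean 40th percentile. GSTU22 is the gene whose genotypes overlap, and AT5G37990 and COR15A span the widest range.

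Among the 13 members with a symbol, 4 encode glutathione transferases or glucosyltransferases, a grouping made after their values were seen. Glutathione transferases of the tau class attach glutathione to reactive compounds, and glucosyltransferases attach glucose to phenolics and other small molecules. GSTU25 had 6.53 and 6.21 in the mutant, against 2.81 and 4.52 in wild type, below the 40th percentile on both wild-type arrays. UGT72E1, which acts on lignin precursors, had 8.06 and 6.84 in the mutant, against 6.20 and 5.81 in wild type, and its mean difference of 1.45 was 0.84 without ein3-1eil1-1 replicate 1. UGT84A3, which acts on hydroxycinnamic acids, had 6.40 and 5.64 in the mutant, against 4.61 and 4.58 in wild type. It too lay below the 40th percentile on both wild-type arrays. GSTU25 and UGT84A3 were thus compared only through the mutant and had to differ. In all 4 genes, GSTU22 included, the pair 1 mutant array was the higher of the mutant arrays. The same held for 81 of the 125 members and for 7318 of the 14047 compared probe sets.

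Among the other members with a symbol, the transcription factor genes BZIP34 and YAB5 had modest signals. BZIP34, a basic leucine zipper factor, had 6.28 and 5.72 in the mutant, against 4.68 and 2.13 in wild type. YAB5, a YABBY factor of leaf development, had 6.76 and 6.61 in the mutant, against 5.44 and 5.36 in wild type. GFAT, for the enzyme that starts amino sugar synthesis, had 5.37 and 5.66 in the mutant, against 2.84 and 4.34 in wild type. BZIP34 and GFAT lay below the 40th percentile on both wild-type arrays, so they were compared only through the mutant and had to differ. P1R1, for which no role is given here, was brighter, with 9.34 and 9.0 in the mutant against 7.71 and 7.59 in wild type. For YAB5 and P1R1 the SD between the arrays of a genotype was at most 0.24 (n = 2), while the wild-type arrays of BZIP34 lay over 2 log2 units apart. The mean difference of BZIP34, 2.60, ran from 1.37 to 3.91 without 1 wild-type array, and that of GFAT, 1.93, was 1.18 without wild type replicate 1. With a pseudocount of 16 they were 1.58 and 1.19.

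Among the genes known by locus, the largest differences in the smaller pair after AT5G37990 and COR15A came from AT4G26790, AT1G30250 and AT4G28780. AT4G26790 had 6.04 and 5.71 in the mutant, against 3.28 and 2.47 in wild type. AT4G28780 had 6.15 and 6.27 in the mutant, against 3.79 and 2.74 in wild type. AT1G30250 had 7.23 and 5.65 in the mutant, against 4.77 and 2.47 in wild type. All 3 were below the 40th percentile on both wild-type arrays, so they were compared only through the mutant and had to differ. With a pseudocount of 16 their mean differences of 3.00, 2.95 and 2.82 became 1.81, 1.92 and 1.89. Without wild type replicate 2 that of AT1G30250 was 1.72.

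AT3G45160, AT2G43620 and AT3G19850 were also dim on both wild-type arrays and had to differ. Their mean differences were 2.43, 2.03 and 2.66. With a pseudocount of 16 that of AT3G45160 was 1.49. For AT3G19850 the mean difference was 1.61 without wild type replicate 1. AT2G16005 was not dim. It had 9.59 and 8.39 in the mutant, against 5.93 and 6.40 in wild type, and its differences of 3.66 and 1.99 kept it a member under each of the 10 alternative settings run.

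The brightest members naming 1 gene were, in the mutant, AT3G05730, AT1G62510 and AT4G22212. AT3G05730 had 11.40 and 11.82 in the mutant, against 8.78 and 10.43 in wild type. Its mean difference of 2.0 was 1.18 without wild type replicate 1. AT1G62510 had 11.71 and 10.39 in the mutant, against 9.24 and 9.15 in wild type. Its mean difference of 1.86 was 1.20 without ein3-1eil1-1 replicate 1. AT4G22212 had 10.62 and 10.21 in the mutant, against 9.43 and 8.02 in wild type, and its mean difference of 1.70 was 0.98 without wild type replicate 2. In each of these 3 genes, arrays of 1 genotype lay over 1 log2 unit apart.

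AT1G29660 and AT4G13180 were also among the 8 brightest named members, beside IAA29, AT1G72140 and P1R1. AT1G29660 had 9.88 and 9.85 in the mutant, against 8.82 and 7.30 in wild type, and its mean difference of 1.80 was 1.04 without wild type replicate 2. AT4G13180 had 9.32 and 9.40 in the mutant, against 7.39 and 7.66 in wild type, so the arrays of each genotype lay close together. Its mean difference of 1.83 ran from 1.68 to 1.99 when each array was left out in turn.

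At the threshold, the members just inside were NAMT1, AT1G68600, AT1G30820 and AT5G39520, with smaller-pair differences of 1.00, 1.01, 1.02 and 1.03. Just outside were ATL5 with 0.988, LEA18 with 0.986, AT3G55840 with 0.968 and AT5G44410 with 0.963. LEA18, a late embryogenesis abundant gene, differed by 1.93 in pair 1, and AT3G55840 by 2.26 in pair 2. AT5G39520 was uneven as well, with 8.0 and 6.24 in the mutant, against 4.19 and 5.21 in wild type. Its mean difference of 2.42 was 1.56 without ein3-1eil1-1 replicate 1.

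Position on the chromosomes was not used to choose members. Of the 65 genes, 23 were on chromosome 1, 11 on chromosome 2, 10 on chromosome 3, 7 on chromosome 4 and 14 on chromosome 5. Chromosome 1 held 35.4% of the members and 26% of the compared genes, and on the other chromosomes the shares lay closer together. In the order of annotated genes, 8 members, or 12.3%, had another member within 10 genes. Of the 7370 compared genes, 3.89% had a member other than themselves that near. AT5G37990, COR15A, COR15B, AT1G30250 and AT1G68600, which are among the 8, passed the filter through the mutant arrays alone and had to differ. Every neighbouring set holds a gene of these, so the share is a description only.

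The neighbouring members formed 4 sets. COR15B and COR15A are adjacent, as are AT1G30250 and AT1G30260, while AT5G37990 and AT5G38020 are 5 genes apart and AT1G68570 and AT1G68600 are 6 apart. AT1G30260 had 7.85 and 7.45 in the mutant, against 6.78 and 6.20 in wild type. AT1G68600 had 5.33 and 6.01 in the mutant, against 4.33 and 4.79 in wild type, and its mean difference of 1.11 was 0.73 without ein3-1eil1-1 replicate 2. COR15A and COR15B, like the SABATH genes, are related copies, and how far their probe sets read each other's transcript was not tested.

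Other compared genes around these sets had smaller differences. Only probe sets naming 1 gene were placed, so those naming several or no gene, members included, are missing from these regions. Around COR15A and COR15B, 3 other genes within 10 positions ran from -0.15 to 0.18 in mean difference. Around AT1G30250 and AT1G30260, 4 genes ran from -0.53 to 0.25, and around AT1G68570 and AT1G68600, 9 genes ran from -0.43 to 0.62. Around AT5G37990 and AT5G38020, 3 genes ran from -0.24 to 0.84. The highest of them, AT5G38030, lies next to AT5G38020 and differed by 0.51 in pair 1 and 1.16 in pair 2.

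**Figure D4:**
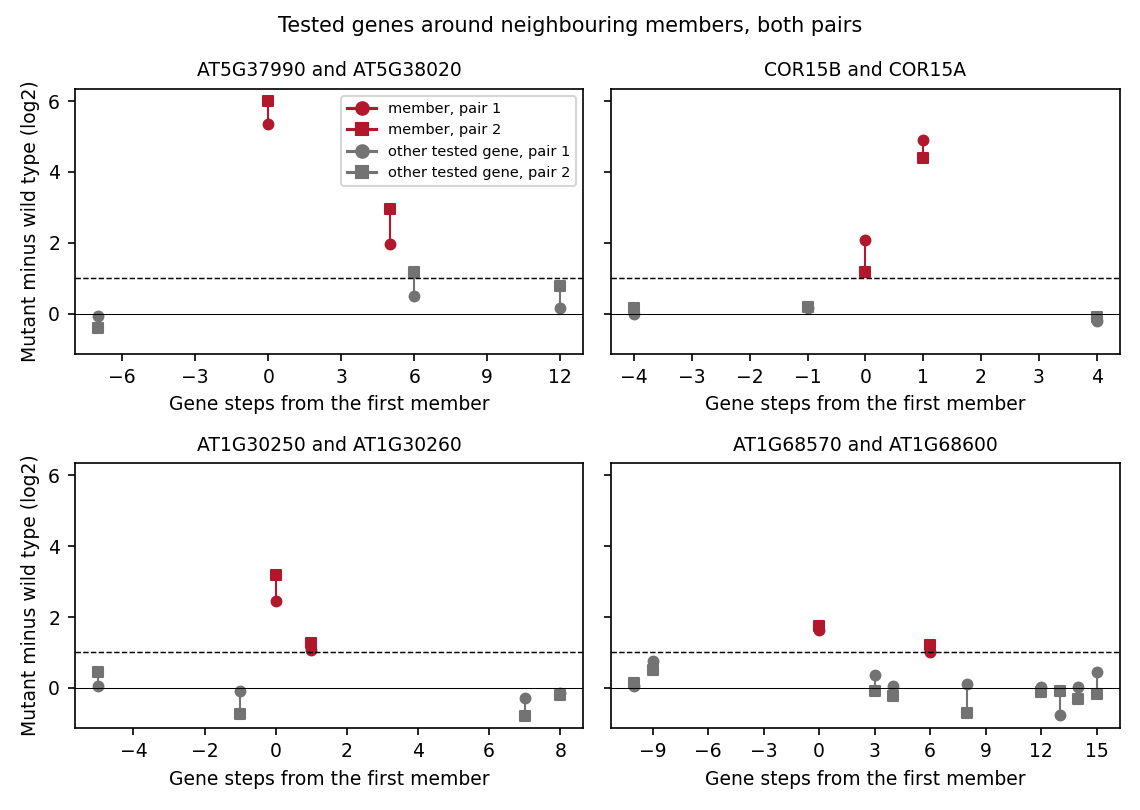
Log2 difference, mutant minus wild type, of each compared gene around the 4 sets of neighbouring members, by its distance in annotated genes from the first member of the set. Red marks are members and grey marks other genes; circles are pair 1, squares pair 2, joined by a line, and the dashed line is at 1. The other genes lie between -0.79 and 1.16, and AT5G38030 passes 1 in pair 2. Probe sets naming several or no gene are not shown.

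Some families on the lists held 0 members, among few genes compared and against a share of 0.89% over all compared probe sets. Of 16 tropinone reductase-like genes, 6 were compared, and their median was -0.81. Of the 6, 1 had a mean difference above 0, where 49.5% of all compared genes did. Under the deposited scaling 2 did, beside 86.3% of all compared genes, and the median was -0.43. The list was chosen with earlier results of these data known, so these counts are a description only. AT2G29310 differed by -1.96 and -1.21 and AT2G29290 by -1.25 and -1.80, and the highest were TRI with 0.43 and AT5G06060 with -0.16. By limma, 0 of the 6 passed and 3 had an unadjusted p under 0.05. AT2G29290 and AT2G29310 passed with the pair as a block (adjusted p = 0.0021 and 0.016).

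Of 21 expansin and xyloglucan-modifying genes, 8 were compared, with 0 members and a median of -0.24, which was 0.15 under the deposited scaling. The proteins they encode loosen and remodel the cell wall. EXPA8 differed by 0.77 and EXPA15 by 0.59, while XTH18 differed by -1.03 and EXPA9 by -0.58. By limma, 0 of the 8 passed and 2 had an unadjusted p under 0.05, and XTH18 passed with the pair as a block (adjusted p = 0.026).

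In the ethylene list, 2 of 29 genes were compared, and both had lower means in the mutant. ARL, a growth gene related to ARGOS, fell to 6.70 and 6.48 in the mutant, against 9.43 and 10.21 in wild type (limma adjusted p = 0.0089). RTE1, which acts on the ethylene receptor ETR1, had 6.66 and 6.39 in the mutant, against 7.63 and 7.37 in wild type (limma adjusted p = 0.41, and 0.031 with the pair as a block). Among the stress genes, ZAT10, listed as STZ, differed by 0.31 and AT5G64870 by -0.44, and the jasmonate and pathogen list had 0 genes to compare.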

How the data were processed

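Whole-seedling RNA of 2 ein3-1eil1-1 and 2 wild-type samples was measured on Affymetrix ATH1 arrays, and groups were taken from the labels. The deposited table holds linear signal intensities from MAS5, the tool that the submitters' processing notes name. Its version, its scaling target and any detection calls are not given in the sources used here. Precision is limited by having 2 arrays per genotype.

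Of 22810 probe sets, 64 Affymetrix controls were left out. The rest were taken as log2(signal + 3), which understates changes of dim probe sets, and quantile normalised. Probe sets at or above the 40th percentile of their array on at least 2 arrays were compared. Where several probe sets named a gene, the brightest stood for it. The naming table gave 1 gene for 13513 probe sets and several for 503. A RefSeq gene (assembly TAIR10.1) was found for 13436 of the 13513, and the order of these genes gave the neighbours. The files name no genome build, so no coordinates are given.

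The members and the 11 gene lists were chosen with earlier results of these data known. Genes named in the text are the members with the largest differences, the brightest, those on lists, near another member or at the threshold. Members with a RefSeq symbol were added after their values were seen. On lists, the highest and lowest other genes are named, and other genes beside them were chosen after their values were seen. Genes on lists that are not members were tested two-sided with limma (version 3.58.1, R 4.3.3), using a moderated variance with an intensity trend and Benjamini-Hochberg adjustment over all compared probe sets. The fit was tested on simulated data. The pair as a block was an alternative. Other alternatives were 2 pseudocounts, 2 filters, 2 scalings and leaving out each array. Promoter and protein sequences were not analysed here. Figures were drawn with matplotlib 3.10.9.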

Additional observations from a re-analysis of the deposited data

How the results depend on the processing

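Of the 125 members, 43 stayed members under each of the 10 alternatives, 19 of them naming 1 gene. These include AT3G21670, IAA29, AT5G38020, AT2G16005, GH3.3, YAB5 and P1R1. The number of members was 83 with a pseudocount of 16, 79 with a filter at the 60th percentile, 369 without a filter and 232 under the deposited scaling, which raised the median difference of all compared probe sets to 0.40. With median centring it was 125, of which 118 were shared. Without 1 array in turn, the number that differed by at least 1 from each remaining array ran from 113 to 400. Of the 125 members, 59 were still called without ein3-1eil1-1 replicate 1, 74 without ein3-1eil1-1 replicate 2, 110 when wild type replicate 1 was left out and 93 when replicate 2 of wild type was. AT5G37990 and COR15A dropped out when either mutant array was left out, because they then failed the filter, as did 40 members in each case. The count with a gap of at least 1 between genotypes, 78, became 246 without a filter, 51 with the stricter filter and 137 under the deposited scaling, and ran from 113 to 400 without 1 array. Members with another within 2 genes numbered 4, and the share of all compared genes that near a member was not computed.

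Of the 46 compared list genes that were not members, 0 were higher and 1, ARL, was lower by limma, and 12 had an unadjusted p under 0.05. List genes higher by 1 in both pairs had been taken out as members and those lower by as much had not, so these numbers say nothing of a balance of directions. With the pair as a replicate block, 1, FHL, was higher and 8 were lower: ARL, IAA20, AT2G14060, AT2G29290, AT2G29310, XTH18, RTE1 and PORB. Over all compared probe sets, 1.33% were higher and 1.6% lower with the block. AT2G14060 was compared only through the wild-type arrays. The pairs come from the titles, since the labels number no replicates. Median centring gave 2 lower, and leaving out 1 array gave from 1 to 4 lower and 0 higher, with the lone array assumed to vary like the other genotype.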

Other observations

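The 60 members without a single named gene resembled the others in level, with a median normalised log2 signal of 7.45 in the mutant and 5.75 in wild type. Their mean differences ran from 1.08 to 3.06. The largest rested on 9.03 and 8.99 in the mutant, against 6.04 and 5.86 in wild type, and these arrays lay close together within each genotype. The brightest member of all was also unnamed, with 12.11 and 11.91 in the mutant, against 11.02 and 10.74 in wild type. Both probe sets were chosen after their values were seen.

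Few probe sets went opposite ways in the pairs by that size. In all, 12 were at least 1 higher in the mutant in pair 1 and at least 1 lower in pair 2, and 10 the reverse.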
